A study of Mus musculus with 6 samples.

Results

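Neural stem and progenitor cells (NSPCs) of the adult mouse subventricular zone (SVZ) were compared between uninjured mice and mice 1 day after a photothrombotic lesion of the cortex (PT D1). All cells that the authors' table places in the stem cell class were taken from the 4 libraries of these conditions, which gave 146 of the 222 NSPCs and of the 658 cells in the series. The uninjured libraries held 16 and 59 NSPCs, and the PT D1 libraries held 19 and 52. Every mouse carried Nestin-CreERT2 and R26-yfp and had received tamoxifen, so a recombinase under the Nestin promoter had switched on a yellow fluorescent protein in stem cells and in the cells descended from them. PT was made in one hemisphere by Rose Bengal and cold light on the cortex, and uninjured mice (Ctrl) received no PT. The lateral SVZ of the injured side was dissected, tissue of several mice was digested together, and fluorescent cells were sorted singly into wells beside CD11b+ CD45low microglia. How many mice and which plates stand behind a library is not stated, so a plate and a condition cannot be told apart, and the p values measure only the spread between libraries. The NSPCs of a library held 116190 to 497292 unique molecular identifiers (UMIs, each counting 1 captured mRNA molecule), with medians of 6184 to 7002 UMIs per cell. Median mitochondrial shares were 13.3 and 12.2% in the uninjured libraries and 16.2 and 11.7% at PT D1.

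In the SVZ, type B cells are stem cells with astroglial features. Most rest in a quiescent state, and when they activate they give rise to type C cells, which divide rapidly and produce neuroblasts that migrate away as young neurons. Injury at a distance can reach these cells through cytokines, growth factors and stress signals, which act first on immediate early genes such as Egr1 and Junb and later on genes of reactivity and the cell cycle. In the authors' subtypes, neuroblasts and type C cells stand beside type B cells, which are split into quiescent and activated ones. The fixed markers followed these names. The summed level of 8 quiescent type B markers was 17796 CPM (UMIs of a gene per 1000000 UMIs) in quiescent type B cells and 551 to 1776 CPM in the other subtypes. For 6 activated type B markers it was 2547 CPM in activated type B cells and 125 to 640 CPM elsewhere. For 7 type C markers it was 3940 CPM in type C cells and 329 to 3039 CPM elsewhere, and for 8 neuroblast markers it was 7695 CPM in neuroblasts and 334 to 5277 CPM elsewhere.

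RNA of other cells was also present. The 16 microglia markers summed to 1257 and 1142 CPM in uninjured NSPCs and to 1413 and 1596 CPM at PT D1, which was 4.22 and 3.90% of their level in the microglia of the uninjured libraries and 5.25 and 8.08% at PT D1. Of the 7 markers that could be tested edgeR and DESeq2 called none, and 2 stood higher and 1 lower at PT D1 at an unadjusted p under 0.05. Of all 4907 genes tested by edgeR, 332 stood higher and 392 lower at that p. At least 3 of the 16 were seen in 129 of the 146 cells. For some of the genes below that microglia also express, the level expected from this share is given beside them.

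The mix of subtypes differed between the conditions. Activated type B cells made up 4 of 16 and 4 of 59 NSPCs in the uninjured libraries (25 and 6.78%). They made up 6 of 19 and 19 of 52 at PT D1 (31.6 and 36.5%). Neuroblasts made up 37.5 and 49.2% of uninjured NSPCs and 21.1 and 28.8% at PT D1. For both subtypes the libraries of the conditions did not overlap. The mean share of activated type B cells was 18.2 percentage points higher at PT D1 (9.06 to 27.3 with any 1 library left out) and that of neuroblasts was 18.4 points lower (12.6 to 24.2). Quiescent type B cells stood at 18.8 and 23.7% against 21.1 and 26.9%, and type C cells at 18.8 and 20.3% against 26.3 and 7.69%, and for both the libraries of the conditions overlapped. The exact binomial intervals of these shares were wide, for example 7.27 to 52.4% for the 4 activated cells of uninjured library 1 and 1.88 to 16.5% for those of library 2, and with 2 libraries per condition no exact permutation test of the shares can reach a p under 0.05. Because activated type B cells held many UMIs, they supplied 38.4 and 11.9% of the UMIs summed over uninjured NSPCs and 46.8 and 45.8% at PT D1. Fewer cells of a type and less RNA per cell cannot be told apart in such sums. The subtypes were also drawn by the authors from the expression of these same cells, so a gene that helps to define a subtype also enters the mix.

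**Figure D1:**
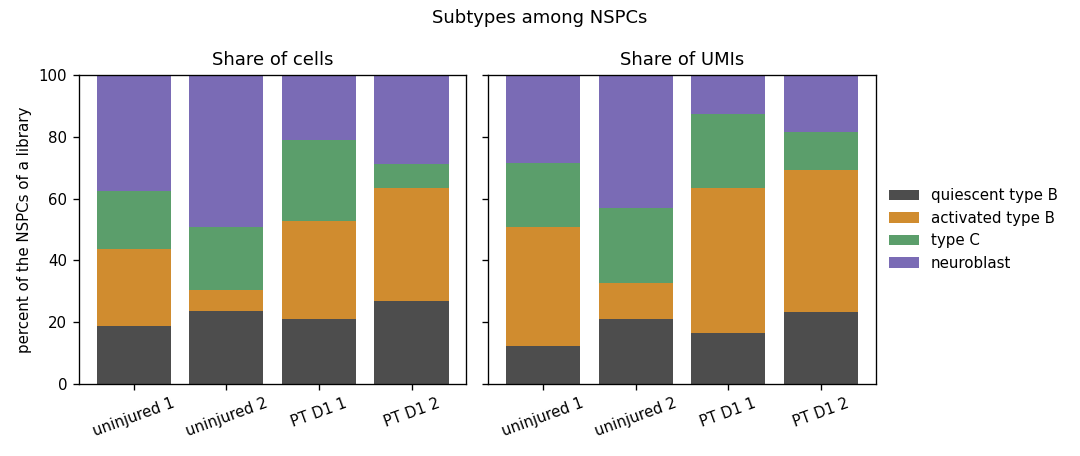
Share of the 4 subtypes among the NSPCs of each library (left, percent of cells, right, percent of UMIs), with 2 uninjured and 2 PT D1 libraries. Activated type B cells supplied 11.9 to 38.4% of the UMIs of the uninjured libraries and 45.8 to 46.8% at PT D1.

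Summed over all NSPCs of a library, 51 genes rose and 53 fell at PT D1 among 4907 genes tested (1.04 and 1.08%, in all 2.12%; edgeR quasi-likelihood F-test, Benjamini-Hochberg adjusted p under 0.05). The comparison was then repeated with the subtype mix held constant: each library was set against the counts that its own UMIs per subtype and a fixed profile of each subtype would give, so that what remains is the change beyond the mix. At a constant mix 54 genes rose and 67 fell (1.1 and 1.37%, in all 2.47%). Of the genes that rose in the plain comparison 36 also rose at a constant mix (70.6% of the former and 66.7% of the latter), and of those that fell 28 did (52.8 and 41.8%). All 51 risen genes kept their sign and at least 50% of their log2 fold change, with a median of 84.0% kept, and the median log2 fold change went from 2.18 to 1.84. Of the 53 fallen genes all kept their sign but 42 kept at least 50%, with a median of 74.4%, and the median went from -1.56 to -1.27. The mix alone would have given medians of 0.31 for the risen and -0.40 for the fallen genes. The count depended on the libraries and on the tool. It was 39 genes without uninjured library 2 and 229 and 166 without PT D7 library 1 and 2, and DESeq2 called 17 genes, all of them among the 104. In both comparisons, part of the calls with 1 library left out were of other genes, and 3534 to 7298 genes were tested in all NSPCs. Of 50 called genes followed one by one, DESeq2 gave 29 an adjusted p, and 16 of these did not pass. A gene without an adjusted p counts as not called in every DESeq2 count here. Keeping only cells with at least 2000 UMIs gave 94 calls, 92 of them among the 104. Stricter ways of keeping fewer cells or UMIs left few calls and few genes to test. Ttr alone passed in the cells with at most 10% mitochondrial UMIs and in the cells with fewer than 3 microglia markers. These sets held 2 to 15 and 2 to 9 cells per uninjured or PT D1 library. With every cell thinned to 1000 UMIs 4 genes passed, Mt1, Mt2 and Ttr among them. Genes tested numbered 613 in the mitochondrial set, 320 in the microglia marker set and 489 after thinning. Of the 50 genes followed, 22, 17 and 18 could be tested there. Of these 19, 14 and 15 lost the call, and 2 in each of the mitochondrial and microglia marker sets changed direction. At a constant mix the count was 50 without uninjured library 2, 55 without PT D1 library 2, and 216 and 204 without PT D7 library 1 and 2.

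**Figure D2:**
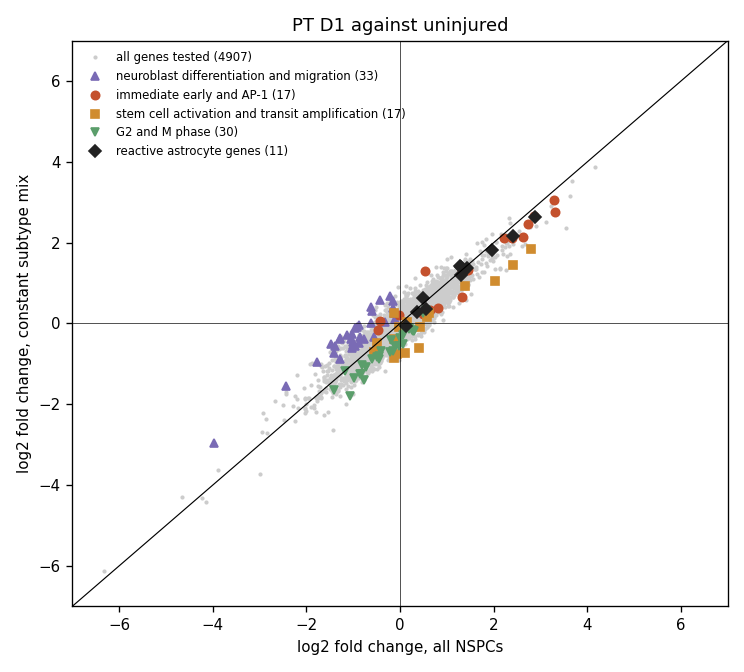
Log2 fold change of each of the 4907 genes tested (PT D1 against uninjured) in all NSPCs (horizontal) and at a constant subtype mix (vertical), with 5 gene lists marked and a line of equality. Neuroblast genes such as Stmn2 (-1.47 and -0.52) lie above the line and nearer 0 at a constant mix, immediate early genes such as Egr1 (2.73 and 2.45) lie close to it, and G2 and M phase genes such as Top2a (-0.87 and -1.25) lie below it.

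Mt1 and Mt2 rose by both edgeR and DESeq2 and passed the test with any 1 library left out. They encode small cysteine-rich proteins that bind zinc and copper and are induced by metals, glucocorticoids and oxidative stress. The genes are neighbours on chromosome 8 of GRCm39, Mt2 at chr8:94898819-94900207 and Mt1 at chr8:94905710-94906955, both on the plus strand. Their promoters are shown because the genes moved together and because metal-induced transcription acts through short metal response elements upstream of them. The 250 bases before each RefSeq start (GRCm38.p6, plus strand, chr8:94172368-94172617 for Mt2 and chr8:94178839-94179088 for Mt1) follow 5′ to 3′, with matches to TGCACNC or TGCGCNC on either strand in capitals.
Mt2: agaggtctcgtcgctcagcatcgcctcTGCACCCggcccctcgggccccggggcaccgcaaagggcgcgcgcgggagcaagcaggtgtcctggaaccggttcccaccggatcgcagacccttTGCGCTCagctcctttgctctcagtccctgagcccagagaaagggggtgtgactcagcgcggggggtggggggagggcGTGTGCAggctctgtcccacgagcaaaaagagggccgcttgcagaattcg
Mt1: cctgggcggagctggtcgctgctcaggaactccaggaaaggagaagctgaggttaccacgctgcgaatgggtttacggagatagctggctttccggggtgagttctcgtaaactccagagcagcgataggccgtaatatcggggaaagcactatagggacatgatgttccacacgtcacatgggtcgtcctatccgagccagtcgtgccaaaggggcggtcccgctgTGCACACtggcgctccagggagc
The Mt2 window held 3 matches, beginning 223, 128 and 50 bases before the start, the last on the minus strand, and the Mt1 window held 1, beginning 23 bases before it. Of 32851 promoter windows of this length 21.4% held at least 1 match and 1.26% held at least 3. A match is a match of letters and not a measured site, and bases past these RefSeq starts were not searched.

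Mt2 stood at 374 and 629 CPM in the uninjured libraries and 3251 and 4579 CPM at PT D1, on the scale of CPM after TMM scaling that is used for all NSPCs here. Both PT D1 libraries lay far above both uninjured ones, as they did for Mt1, at 642 and 559 CPM in the uninjured libraries and 2282 and 3345 CPM at PT D1. The log2 fold change of Mt2 was 2.91 ± 0.26 (SE; adjusted p 1.0e-07) and 2.41 ± 0.20 at a constant mix (1.0e-09), so 83.0% of it remained. For Mt1 it was 2.25 ± 0.29 (6.2e-05) and 1.89 ± 0.21 (5.9e-07), with 84.1% remaining. Mt2 UMIs were found in 39 of 75 uninjured and 56 of 71 PT D1 cells, and no cell held more than 11.1% of the Mt2 UMIs at PT D1. Microglia had lower levels of Mt2 (32.9, 49.1, 317 and 681 CPM in the 4 libraries) with UMIs in 14.8% of uninjured and 78.2% of PT D1 microglia, and the microglial RNA in NSPCs would account for 16.6 and 55.0 of 3035 and 4033 CPM over all UMIs at PT D1. Of 15 genes of metallothioneins and metal handling 6 were tested, and Mt1 and Mt2 rose in both comparisons. The median log2 fold change of the 6 was 1.26, against 0.97 at a constant mix and 0.026 over all genes tested. The filter on low counts can let a gene pass through 1 condition alone. List medians here and below therefore leave out members that stayed low throughout.

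Immediate early genes, which are transcribed within minutes of a stimulus without new protein synthesis, rose together in part. The list held 28 genes, of which 17 could be tested. Of these, Fos, Junb, Egr1, Klf10 and Cyr61 rose and none fell, the same count at a constant mix. The median of the 17 was 1.33 and 1.32, without the members too low for the filter. DESeq2 called 1 of the 17 in all NSPCs. Egr1, a zinc finger transcription factor, stood at 57.5 and 62.9 CPM in the uninjured libraries and 380.3 and 437 CPM at PT D1. Junb, a subunit of the AP-1 transcription factor, stood at 0 and 31.4 CPM in the uninjured libraries and 142 and 205 CPM at PT D1. Klf10, a Krüppel-like factor induced by TGF-beta, stood at 9.58 and 19.4 CPM in the uninjured libraries and 82.0 and 239 CPM at PT D1. In each of the 3 the libraries of the conditions did not overlap, as was true of 23% of all genes tested in this direction and of 22% in the other. Egr1 had a log2 fold change of 2.73 ± 0.33 (adjusted p 2.3e-05) and 2.45 ± 0.31 at a constant mix (4.9e-06). For Junb the values were 2.87 ± 0.47 (0.0013) and 2.66 ± 0.43 (4.0e-04), and for Klf10 3.31 ± 0.53 (0.001) and 2.76 ± 0.51 (0.0016). Fos, the AP-1 partner of Junb, stood at 0 and 31.4 CPM in the uninjured libraries and 67.1 and 145 CPM at PT D1 and rose by 2.23 and 2.11 on the log2 scale. Cyr61, a matricellular protein that responds to YAP and serum, stood at 0 and 16.9 CPM in the uninjured libraries and 44.7 and 192 CPM at PT D1 and rose by 3.29 and 3.06, but 1 cell held 57.1% of its UMIs at PT D1. Without PT D1 library 2 the rises of Junb and Klf10 no longer passed the test (adjusted p 0.16 and 0.59), and without uninjured library 2 that of Fos did not (0.051). Junb is abundant in microglia (264, 335, 369.7 and 435 CPM), whose RNA would give 19.4 and 35.2 of 132 and 181 CPM in NSPCs at PT D1.

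**Figure D3:**
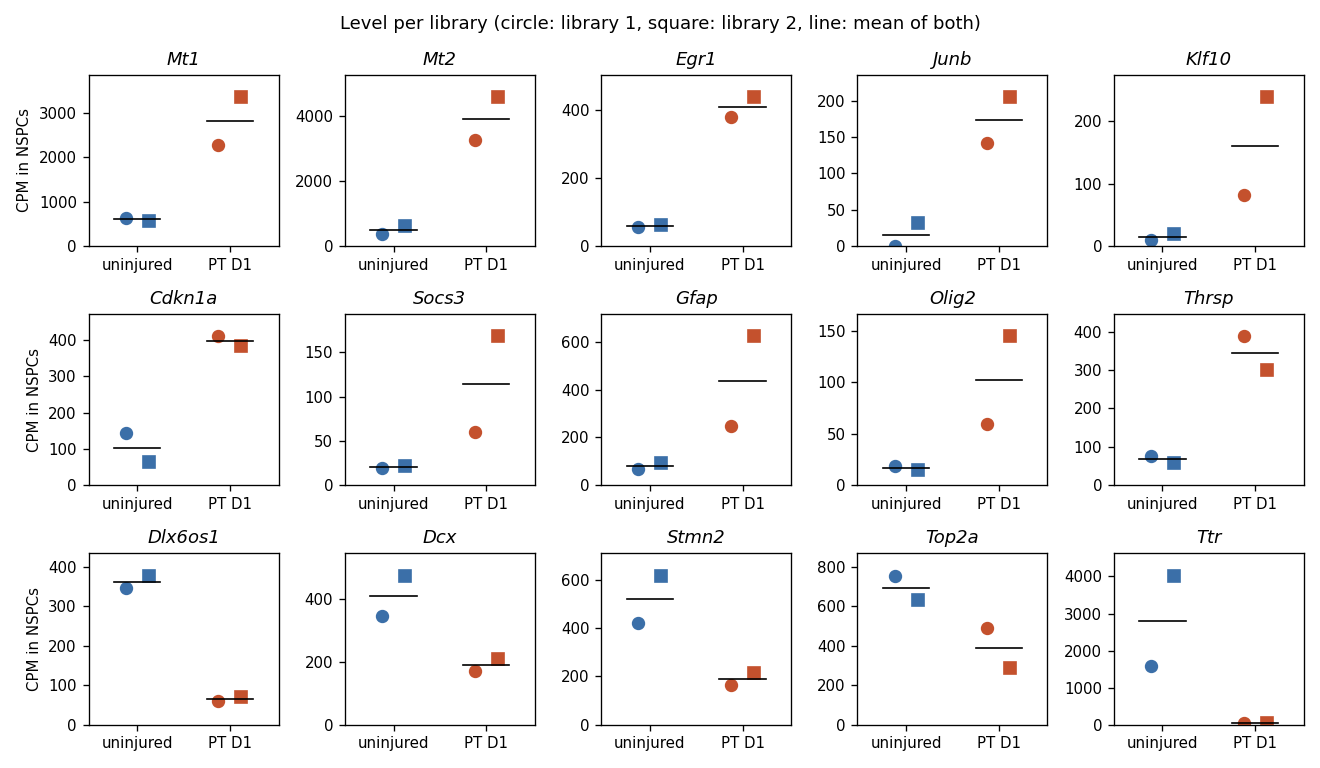
Level of 15 genes in the NSPCs of each library (CPM after TMM scaling; blue, uninjured; red, PT D1; line, mean of the 2 libraries), each panel from 0. Mt2 (374, 629, 3251 and 4579), Egr1 (57.5, 62.9, 380.3 and 437) and Cdkn1a (144, 62.9, 410.1 and 383) were higher in both PT D1 libraries, and Stmn2 (422, 617, 164 and 212) and Ttr (1571, 4026, 44.7 and 30.3) were lower.

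Of 11 tested genes of astrocyte reactivity, Gfap, Cd44 and Anxa2 rose by edgeR and none was called by DESeq2, and at a constant mix Hspb1, S100a6 and S100a11 joined them, with none falling in either. The median of these 11 was 1.30 and 1.38, and the mix alone would have given 0.13. The list held 30 genes, and the others were too low for the filter. Gfap, the intermediate filament of astroglia, stood at 67.1 and 91.9 CPM in the uninjured libraries and 246 and 622 CPM at PT D1 and had a log2 fold change of 2.42 ± 0.41 (adjusted p 0.0017), with 2.17 ± 0.31 at a constant mix (5.5e-05). Gfap UMIs were found in 12% of uninjured and 38.0% of PT D1 NSPCs, against 4.52 and 7.48% of microglia, which do not make Gfap (5.33 and 21.1% against 2.58 and 3.40% with every cell thinned to 1000 UMIs). A single cell held 64.4% of the uninjured Gfap UMIs. Cd44, a hyaluronan receptor, stood at 9.58 and 12.1 CPM in the uninjured libraries and 89.5 and 87.4 CPM at PT D1. Anxa2, a membrane-binding annexin, stood at 19.2 and 41.1 CPM in the uninjured libraries and 59.7 and 192 CPM at PT D1. Their log2 fold changes were 2.88 and 1.95 (adjusted p 0.018 and 0.042), and 2.64 and 1.83 at a constant mix. S100a6, S100a11 and Hspb1 had log2 fold changes of 1.38, 1.40 and 1.43 at a constant mix (adjusted p 0.039, 0.029 and 0.046). In PT D1 library 2 microglial RNA would give 130.0 of 580.4 CPM of S100a6, 103 of 290.2 CPM of S100a11 and 58.5 of 115 CPM of Hspb1. Without PT D1 library 2, Anxa2 and Cd44 lost the call (adjusted p 0.83 and 0.46), as did Hspb1, S100a6 and S100a11 at a constant mix (0.67, 0.84 and 0.65) and Gfap at a constant mix (0.083). The log2 fold change of S100a6 at a constant mix was then -0.32, the opposite direction. Hspb1 there also lost the call without uninjured library 1 or 2 (0.12 and 0.31), and S100a11 without uninjured library 1 (0.093). The adjusted p of Cd44 without uninjured library 2 was 0.36 and that of Anxa2 0.057.

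Among targets of cytokine signalling, Socs3 was the member of the IL-6 family, STAT3 and C/EBP list to rise (1 of 4 tested). This list held 21 genes and that of TNF and NF-kB 19. The list of interferon response and MHC class I held 23, and that of Notch, BMP and Id 32. Socs3 is induced by STAT3 and blocks the receptors that activate it. It stood at 19.2 and 21.8 CPM in the uninjured libraries and 59.7 and 168 CPM at PT D1, with a log2 fold change of 2.54 ± 0.56 (adjusted p 0.014) and 2.28 ± 0.52 at a constant mix (0.014). It did not pass without uninjured library 2 (0.14). Microglia expressed Socs3 more highly (46.7, 55.5, 322 and 379.6 CPM), and their RNA would give 16.9 and 30.7 of 55.7 and 148 CPM in NSPCs at PT D1. Nfkbia, the inhibitor that NF-kB induces against itself, rose as 1 of 2 tested genes of the TNF and NF-kB list, with 76.6 and 116 CPM in the uninjured libraries and 246 and 256 CPM at PT D1 and log2 fold changes of 1.27 and 1.20 (adjusted p 0.048 and 0.028). Microglial RNA would give 42.2 and 53.9 of 229.7 and 225 CPM of it at PT D1. It lost the call without either uninjured library or PT D1 library 2 (adjusted p 0.13, 0.088 and 0.13). Ifitm3, an interferon-induced membrane protein, rose as 1 of 6 tested genes of interferon response and MHC class I, with 28.7 and 24.2 CPM in the uninjured libraries and 134 and 138 CPM at PT D1 and log2 fold changes of 2.41 and 2.16 (adjusted p 0.019 and 0.0084; 0.12 without uninjured library 2). Id2, a BMP target that inhibits neurogenic transcription factors, rose as 1 of 16 tested genes of Notch, BMP and Id, with 67.1 and 159.7 CPM in the uninjured libraries and 268 and 353 CPM at PT D1 and log2 fold changes of 1.28 and 1.18 (adjusted p 0.042 and 0.02). Microglial RNA would give 43.5 and 42.6 of 251 and 311 CPM of Id2 at PT D1. Id2 lost the call if uninjured library 1 (0.18) or PT D1 library 2 was left out (0.21). DESeq2 called no gene of these 4 lists. When the expected microglial RNA was subtracted, 7 named genes no longer passed the test, with log2 fold changes close to those before. They were 2.35 for Socs3 (adjusted p 0.06), 1.20 for Nfkbia (0.1), 1.11 for Id2 (0.11), 1.84 for Anxa2 (0.092) and 2.32 for Fos (0.072). They were -1.37 for Celf4 (0.054) and -0.74 for Sox11 (0.052), which are neuroblast genes that fell.

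The Socs3 promoter is shown because STAT dimers bind palindromes of the form TTCNNNGAA. Its 250 bases before the RefSeq start (GRCm38.p6, chr11:117969367-117969616, minus strand) hold 1 such match, in capitals, beginning 154 bases before the start.
Socs3: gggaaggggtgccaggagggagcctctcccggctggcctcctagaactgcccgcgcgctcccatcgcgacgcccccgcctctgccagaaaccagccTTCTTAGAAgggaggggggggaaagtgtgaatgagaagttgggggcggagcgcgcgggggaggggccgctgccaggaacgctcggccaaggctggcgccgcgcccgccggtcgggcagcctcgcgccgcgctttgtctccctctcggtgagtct
Of all promoter windows of this length 7.02% held at least 1 match.

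Of the cell cycle genes, an inhibitor rose and, at a constant mix, genes of the late phases fell. Cdkn1a encodes p21, an inhibitor of cyclin-dependent kinases that p53 and stress induce. It stood at 144 and 62.9 CPM in the uninjured libraries and 410.1 and 383 CPM at PT D1, and its log2 fold change was 2.18 ± 0.34 (adjusted p 9.7e-04) and 1.93 ± 0.32 at a constant mix (4.0e-04), with 88.3% remaining. Microglial RNA would give 14.6 and 38.3 of 383 and 338 CPM of it at PT D1. Its adjusted p without uninjured library 2 was 0.084 and 0.15. It was the 1 of 10 tested D cyclins and CDK inhibitors that was called. Ccnd2, a D cyclin of progenitors, stood at 4302 and 4447 CPM in the uninjured libraries and 3631 and 3318 CPM at PT D1 (adjusted p 0.39). No gene of S phase (23 tested) passed in either comparison by edgeR or, in all NSPCs, by DESeq2, and in all NSPCs 2 stood higher and 1 lower at an unadjusted p under 0.05. Of 30 tested genes of G2 and M phase none passed in all NSPCs (6 lower at an unadjusted p under 0.05, 0 by DESeq2), whereas at a constant mix Mki67, Top2a and Cdc20 fell and none rose (13 lower at an unadjusted p). The list's median was -0.21 and -0.69, and the mix alone would have given 0.28. Of all 4907 genes tested by edgeR, 332 stood higher and 392 lower at an unadjusted p under 0.05 in all NSPCs. At a constant mix 302 stood higher and 434 lower. Top2a, the topoisomerase that untangles replicated DNA, stood at 757 and 631 CPM in the uninjured libraries and 492 and 286 CPM at PT D1. Its log2 fold change was -0.87 ± 0.30 (adjusted p 0.15) and -1.25 ± 0.25 at a constant mix (0.0033). Mki67, which coats mitotic chromosomes, stood at 459.9 and 414 CPM in the uninjured libraries and 291 and 279 CPM at PT D1 and had -0.60 and -0.89 (adjusted p 0.037 at a constant mix). Cdc20, an activator of the anaphase-promoting complex, stood at 105 and 70.2 CPM in the uninjured libraries and 52.2 and 30.3 CPM at PT D1 and had -1.08 and -1.81 (adjusted p 0.023 at a constant mix). At a constant mix Mki67 and Cdc20 did not pass without uninjured library 2 (0.33 and 0.31). Mki67 did not pass without PT D1 library 1 (0.15) and Cdc20 did not without PT D1 library 2 (0.21).

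The genes that mark resting stem cells did not move as a block. Of 27 tested astroglial genes of quiescent stem cells, Gfap and Fam107a rose in all NSPCs and none fell, while at a constant mix Gfap rose and Slc1a2, Gja1 and Plpp3 fell. DESeq2 called none of the 27 in all NSPCs. The median was 0.18 and -0.11. Gja1, which forms the connexin 43 channels that couple astroglia, stood at 163 and 229.8 CPM in the uninjured libraries and 37.3 and 104 CPM at PT D1 (log2 fold change -1.37 ± 0.39, adjusted p 0.066; at a constant mix -1.74 ± 0.33, 0.0021). Plpp3, a lipid phosphatase of astroglia, stood at 517 and 711 CPM in the uninjured libraries and 276 and 407 CPM at PT D1 (at a constant mix -1.19 ± 0.22, 0.0016). Slc1a2, the main glutamate transporter, stood at 1130.5 and 1991 CPM in the uninjured libraries and 992 and 1432 CPM at PT D1 (-0.71 ± 0.19, 0.035). Its levels overlapped between the conditions, and a single cell held 29.3% of its uninjured UMIs. Fam107a, an actin-binding gene of quiescent radial glia, stood at 268 and 247 CPM in the uninjured libraries and 380.3 and 746 CPM at PT D1, with an adjusted p of 0.041 that became 0.052 at a constant mix. Without uninjured library 2 Gja1 and Slc1a2 did not pass at a constant mix (adjusted p 0.066 and 0.58), nor did Slc1a2 without PT D1 library 1 (0.18). Fam107a did not pass in all NSPCs without uninjured library 2 or PT D1 library 2 (0.15 and 0.54).

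Thrsp, Gas1, Olig2 and Hes6 rose in all NSPCs among 17 tested genes of stem cell activation and transit amplification, and Thrsp rose at a constant mix. DESeq2 called 1 of the 17 in all NSPCs. Thrsp, a regulator of lipogenesis, stood at 76.6 and 58.1 CPM in the uninjured libraries and 388 and 299 CPM at PT D1. Its log2 fold change of 2.41 ± 0.46 became 1.45 ± 0.37 (adjusted p 0.0043 and 0.029), and the mix alone would have given 0.69. Olig2, a transcription factor of progenitors and of the oligodendrocyte lineage, stood at 19.2 and 14.5 CPM in the uninjured libraries and 59.7 and 145 CPM at PT D1, and its log2 fold change of 2.80 ± 0.55 became 1.84 ± 0.54 (adjusted p 0.0049 and 0.067). Gas1, a membrane protein first found in arrested cells, stood at 125 and 77.4 CPM in the uninjured libraries and 291 and 437 CPM at PT D1, with 2.02 and 1.04 (adjusted p 0.0018 and 0.053). Hes6, a neurogenic factor, stood at 182 and 91.9 CPM in the uninjured libraries and 358 and 282 CPM at PT D1, with 1.39 and 0.94 (0.037 and 0.079). Egfr, the growth factor receptor of activated cells, stood at 182 and 121 CPM in the uninjured libraries and 201 and 178 CPM at PT D1, with 0.41 ± 0.32 and -0.60 ± 0.32 (0.61 and 0.37). Sox2, present throughout the lineage, stood at 719 and 731 CPM in the uninjured libraries and 708 and 739.7 CPM at PT D1, with an adjusted p of 1. Without uninjured library 2 Olig2, Gas1 and Hes6 did not pass (adjusted p 0.16, 0.057 and 0.52), and at a constant mix Thrsp did not without uninjured library 1 or PT D1 library 1 (0.098 and 0.082).

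Genes of young neurons were called lower in all NSPCs and mostly not at a constant mix. Of 33 tested genes of neuroblast differentiation and migration, 14 fell in all NSPCs and none rose, and 2 fell at a constant mix. DESeq2 called 5 of the 33 in all NSPCs. The median was -0.96 and -0.34, and the mix alone would have given -0.67. Stmn2, a tubulin-binding protein of growing neurites, stood at 422 and 617 CPM in the uninjured libraries and 164 and 212 CPM at PT D1. Its log2 fold change of -1.47 ± 0.27 (adjusted p 0.0025) became -0.52 ± 0.24 (0.3), so that 35.2% remained. Dcx, the microtubule protein that marks neuroblasts, stood at 345 and 474 CPM in the uninjured libraries and 171 and 208 CPM at PT D1 and went from -1.12 ± 0.27 (0.025) to -0.28 ± 0.25 (0.66), with 24.8% remaining. Tubb3, neuronal tubulin, stood at 747 and 866 CPM in the uninjured libraries and 395 and 403 CPM at PT D1 and kept 25.2%. Sox11, a transcription factor of young neurons, stood at 2453 and 2431 CPM in the uninjured libraries and 1447 and 1432 CPM at PT D1 and kept 49.2%. Stmn4, Nrxn3, Ncam1, Celf4, Nrep, Map1b, Tiam2 and Basp1 fell as well, kept 29.0 to 74.4% and did not pass at a constant mix. The 2 that passed in both were Dlx6os1, a long noncoding RNA beside the interneuron genes Dlx5 and Dlx6, and Ccdc88a, which links actin to migration. Dlx6os1 stood at 345 and 377 CPM in the uninjured libraries and 59.7 and 70.6 CPM at PT D1, with -2.44 ± 0.31 (5.6e-05) and -1.54 ± 0.31 (0.0037). Ccdc88a stood at 642 and 789 CPM in the uninjured libraries and 350.4 and 259 CPM at PT D1, with -1.28 and -0.88 (0.0043 and 0.029). Of the 14, 12 lost the call without uninjured library 2 (adjusted p 0.05 for Map1b to 0.57 for Celf4), Dlx6os1 kept it and Stmn4 was not tested. Without PT D1 library 2, Celf4, Ncam1, Nrep, Sox11 and Stmn4 lost it, without PT D1 library 1 Celf4, Dcx, Sox11 and Tiam2 did, and without uninjured library 1 Sox11 did. Ccdc88a at a constant mix did not pass without uninjured library 1 or 2 or PT D1 library 2 (0.11, 0.1 and 0.21), and Dlx6os1 did not without PT D1 library 2 (0.082).

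The remaining lists held few calls. Among 21 tested chaperones, of which DESeq2 called none in all NSPCs, Hspa8, the constitutive cytosolic HSP70, fell by edgeR in all NSPCs and at a constant mix. It stood at 604 and 409 CPM in the uninjured libraries and 224 and 219 CPM at PT D1, with log2 fold changes of -1.15 and -1.22 (adjusted p 0.021 and 0.0035). At a constant mix Hsp90b1, Calr and Pdia6, which fold proteins in the endoplasmic reticulum, fell too, with log2 fold changes of -1.40, -1.36 and -1.50, and Hspb1 rose as above. Without uninjured library 1 Hsp90b1 and Pdia6 did not pass (0.44 and 0.41), nor did Hspa8 in all NSPCs (0.2, and 0.076 without PT D1 library 2), nor Pdia6 without PT D1 library 1 (0.07). No gene was called in either comparison among 13 of lipoprotein receptors and cholesterol synthesis (5 lower at an unadjusted p under 0.05 in all NSPCs), 36 of ribosomes and translation (4 higher), 28 of oxidative phosphorylation (5 higher and 1 lower), 12 of glycolysis (1 higher) and 9 of growth arrest, survival and apoptosis (2 higher), and DESeq2 called none of them. Of all 4907 genes tested by edgeR, 332 stood higher and 392 lower at an unadjusted p under 0.05 in all NSPCs. Bcl2, an inhibitor of apoptosis, stood at 19.2 and 58.1 CPM in the uninjured libraries and 59.7 and 43.7 CPM at PT D1 (adjusted p 0.98).

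**Figure D4:**
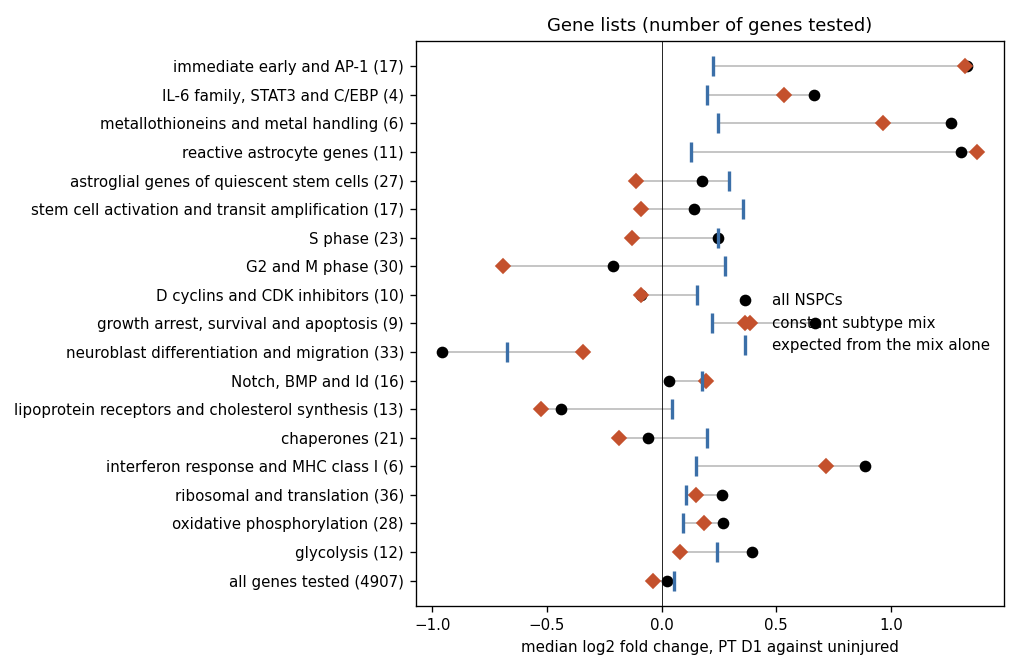
Median log2 fold change (PT D1 against uninjured) of each gene list in all NSPCs, at a constant subtype mix, and under the mix alone, with the number of genes tested in brackets. The neuroblast median went from -0.96 to -0.34, that of G2 and M phase from -0.21 to -0.69, and that of immediate early genes stayed at 1.33 and 1.32.

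Several of the largest changes lay outside the lists. Akap12, a scaffold of protein kinase A, was at 0 and 7.26 CPM in the uninjured libraries and 127 and 101 CPM at PT D1, from 3 uninjured and 47 PT D1 UMIs, a ratio of 20.0 with an exact counting interval of 6.43 to 100.3. Its log2 fold change was 4.16 ± 0.68 (adjusted p 0.0012) and 3.86 ± 0.69 (0.0012). Dlk1, a secreted Notch ligand-like protein of stem cell niches, was at 0 and 9.68 CPM in the uninjured libraries and 171 and 57.2 CPM at PT D1, with 3.66 ± 0.79 (0.013) and 3.52 ± 0.83 (0.018). Single cells held 42.6% of the Akap12 and 55.0% of the Dlk1 UMIs at PT D1. Pde4b, a cAMP phosphodiesterase, was at 19.2 and 14.5 CPM in the uninjured libraries and 59.7 and 124 CPM at PT D1. Tagln2, an actin-binding protein, was at 19.2 and 14.5 CPM in the uninjured libraries and 82.0 and 114 CPM at PT D1. They rose by 2.63 and 2.67, and by 2.19 and 1.97 at a constant mix. Akap12 did not pass without PT D1 library 2 (adjusted p 0.15), Dlk1 without uninjured library 2 or either PT D1 library (0.11, 0.24 and 0.052), Pde4b without uninjured library 2 (0.41), and Tagln2 without uninjured library 2 or PT D1 library 2 (0.29 and 0.49). Among the falls, Nbea, Ctnna2, Shtn1 and Tubb4a, genes of neuronal trafficking, adhesion, polarity and tubulin, fell, with log2 fold changes of -2.43, -2.30, -2.20 and -2.44. At a constant mix Nbea and Ctnna2 still passed (-1.75 and -2.05), and Shtn1 and Tubb4a did not (adjusted p 0.2 and 0.12). None of the 4 passed in all NSPCs without uninjured library 2 (0.14, 0.15, 0.17 and 0.36).

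Markers of other cell types were among the falls. Ttr, transthyretin of the choroid plexus epithelium, stood at 1571 and 4026 CPM in the uninjured libraries and 44.7 and 30.3 CPM at PT D1, a log2 fold change of -6.32 ± 0.41 (adjusted p 3.5e-10) and -6.12 ± 0.35 at a constant mix. Ttr UMIs were found in 75 of 75 uninjured and 13 of 71 PT D1 NSPCs. Microglia of the same libraries showed the same, at 9841, 4167, 553 and 424 CPM, with Ttr in 99.4% of uninjured and 18.4% of PT D1 microglia. Across the 4 subtypes Ttr ranged from 1322 to 1946 CPM in uninjured library 1 and from 1983 to 4662 CPM in library 2. The 12 choroid plexus markers summed to 1549 and 3879 CPM in uninjured NSPCs, with 4 and 12 detected, and to 76.6 and 47.4 CPM at PT D1, with 2 and 4 detected. Kl, Folr1, Otx2, Sostdc1, Slc4a5 and Prlr were at 0 in 3 of the 4 libraries. Enpp2, also of the choroid plexus, stood at 125 and 506 CPM in the uninjured libraries and 37.3 and 16.8 CPM at PT D1. It did not pass without uninjured library 2 (adjusted p 0.43). The 10 oligodendrocyte markers summed to 309.8 and 1217 CPM and to 146 and 628 CPM. The part of this RNA in the other results was not tested. No ependymal, oligodendrocyte precursor, endothelial, mature neuronal or erythrocyte marker reached the level needed for a test.

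Within single subtypes the mix of subtypes cannot differ, but few cells remain. The mix of cell states inside a subtype may still differ, which was not tested. Values below are CPM over all UMIs of a library's cells of that subtype, for the 2 uninjured libraries against the 2 PT D1 libraries. The comparisons share libraries with those above and are not independent of them.

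Quiescent type B cells (3 and 14 uninjured, 4 and 14 PT D1 cells) had 12 calls. Of 506 genes tested 5 rose and 7 fell (0.988 and 1.38%, in all 2.37%). Mt2 stood at 1043 and 1632 against 6976 and 11517 CPM, a log2 fold change of 2.60 ± 0.42 (adjusted p 0.0034). Egr1 stood at 0 and 19.2 against 1169.6 and 656 CPM, from 2 and 80 UMIs, a ratio of 46.0 with an exact counting interval of 12.3 to 386. Junb stood at 0 and 28.8 against 418 and 492 CPM, from 3 and 49 UMIs, a ratio of 18.8 (6.06 to 94.1). Cdkn1a stood at 0 and 48.0 against 710.1 and 580.3 CPM, with 3.71 ± 0.68 (0.0088). Gfap stood at 417 and 355 against 877 and 2132 CPM, with 1.94 ± 0.46 (0.037). Mt1, already high at 4170.1 and 1958 against 8396 and 9208 CPM, had an adjusted p of 0.054. Akap12, at 0 and 0 against 209 and 315 CPM, and Klf10, at 0 and 0 against 41.8 and 227 CPM, had 0 uninjured UMIs and were at least 11.5-fold and at least 7.28-fold higher, against a floor of 3 counts over the group. The genes that fell were Ttr, Plpp3, the insulin-like growth factor binding protein Igfbp5, the brain glycogen phosphorylase Pygb, the thyroid hormone binding protein Crym, the mitochondrial leucyl-tRNA synthetase Lars2 and the unnamed transcript 4930402H24Rik. Plpp3 stood at 2919 and 2524 against 1169.6 and 997 CPM, Igfbp5 at 1459.5 and 864 against 251 and 378 CPM. Pygb stood at 765 and 326 against 0 and 88.3 CPM and Crym at 69.5 and 221 against 0 and 0 CPM. Without uninjured library 2, which leaves 3 uninjured cells, no gene passed by edgeR (75 at an unadjusted p under 0.05), and without PT D1 library 2 Junb, Cdkn1a and Gfap did not (0.45, 0.25 and 0.32). Plpp3, Igfbp5 and 4930402H24Rik lost the call with any 1 of the 4 libraries left out, Pygb without uninjured library 1 or 2 or PT D1 library 1, Lars2 without uninjured library 2 or PT D1 library 1, and Crym without uninjured library 2 or PT D1 library 2. DESeq2 called Egr1, Mt2 and Ttr.

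Activated type B cells (4 and 4 uninjured, 6 and 19 PT D1 cells) had the most calls, 30 higher and 25 lower of 1727 genes tested (1.74 and 1.45%, in all 3.18%). Mt1 stood at 134 and 237 against 1518 and 1539 CPM (3.04 ± 0.32, adjusted p 6.7e-18) and Mt2 at 403 and 1119 against 3838 and 2774 CPM (2.11 ± 0.26, 9.1e-13). Fth1, the ferritin heavy chain, rose as the third of 4 tested genes of metal handling, at 381 and 373 against 922 and 944 CPM. Egr1 stood at 44.8 and 17.0 against 253 and 414 CPM, and Klf10 at 0 and 0 against 89.3 and 323 CPM, from 0 and 56 UMIs, at least 8.72-fold higher. Klf3, another Krüppel-like factor, stood at 22.4 and 0 against 149 and 323 CPM. Activation genes rose here: Olig2 stood at 22.4 and 17.0 against 119 and 239 CPM, Thrsp at 134 and 153 against 610.0 and 524 CPM and Gas1 at 269 and 356 against 521 and 724 CPM, 3 of 15 tested. Astroglial genes rose too, 4 of 17 tested with none falling: Sparcl1, Fam107a, Glul, which makes glutamine, and Cst3, an inhibitor of proteases. Cst3 stood at 1434 and 661 against 1309 and 2289 CPM, so the conditions overlapped. It lost the call without uninjured library 2 or either PT D1 library (0.65, 0.3 and 0.83), and over all NSPCs microglial RNA would give 539 and 646 of 1671 and 2999.6 CPM of it at PT D1. Glul stood at 336 and 389.9 against 476 and 944 CPM and Sparcl1, a matricellular protein of astroglia, at 22.4 and 50.9 against 193 and 388 CPM. The list's median was 0.63, against -0.0049 over all genes tested there. Glul and Gas1 lost the call with any 1 of the 4 libraries left out.

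Genes of the late cell cycle fell in the same cells. Mki67 stood at 739 and 814 against 327 and 304 CPM (-1.25 ± 0.30, adjusted p 0.002), Top2a at 1030.3 and 1136 against 565 and 420.4 CPM and Cdc20 at 246 and 237 against 89.3 and 38.8 CPM, 3 of 27 tested genes of G2 and M phase, with none higher and a median of -0.51. Cdkn1a, at 246 and 136 against 357 and 252 CPM, did not pass (adjusted p 0.49). Of 16 tested chaperones 4 of the endoplasmic reticulum fell: Hspa5 stood at 784 and 424 against 238 and 175 CPM and Hsp90b1 at 1030.3 and 271 against 238 and 136 CPM. Calr stood at 448 and 509 against 164 and 109.9 CPM and Pdia6 at 515 and 220.4 against 104 and 84.1 CPM. Notch1, a receptor that maintains stem cells, stood at 269 and 322 against 59.5 and 109.9 CPM. The Polycomb methyltransferase Ezh2 stood at 336 and 305 against 179 and 58.2 CPM, and the interneuron factor Dlx2 at 336 and 610.2 against 59.5 and 162 CPM. All 3 fell. These calls rest on 8 uninjured cells. PT D7 library 1 was absent from this fit, and 1727 genes were tested, against 506 to 688 in the other subtypes. The counts of calls therefore do not rank the subtypes. Cdc20 and Ezh2 lost the call with any 1 of the 4 libraries left out. Leaving out PT D1 library 2 or an uninjured library also brought calls of genes outside the main ones. Without PT D1 library 1 the calls were 2, Mt1 and Ttr, without PT D1 library 2 they were 29, without uninjured library 2 they were 36, and DESeq2 called 4 (Mt1, Mt2, Rbm3 and Ttr).

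In type C cells (3 and 12 uninjured, 5 and 4 PT D1 cells) 1 of 640 genes tested was called (0.156%), Ttr, which fell, while 75 reached an unadjusted p under 0.05. The counts were 9 and 3 without uninjured library 1 and 2, and 28 and 9 without PT D1 library 1 and 2. Cdkn1a stood at 125 and 50.0 against 349 and 612 CPM, with 2.85 ± 0.75 (adjusted p 0.13), and Mki67 at 586 and 734 against 494 and 318 CPM (0.54). In neuroblasts (6 and 29 uninjured, 4 and 15 PT D1 cells) 2 of 688 genes were called (0.291%), Ttr among them, and both fell, while 88 had an unadjusted p under 0.05. The 30 tested genes of neuroblast differentiation and migration held no call there by edgeR or DESeq2, with 3 higher and 4 lower at an unadjusted p under 0.05 and a median of -0.24. With 1 library left out, the count in neuroblasts was 11 and 8 without uninjured library 1 and 2, and 9 and 15 without PT D1 library 1 and 2. Stmn2 stood at 1083 and 980.4 against 607 and 906 CPM (-0.53 ± 0.27, adjusted p 0.49) and Dcx at 541 and 714 against 552 and 683 CPM (-0.24 ± 0.33, 0.85). The Dcx levels of the conditions overlapped within neuroblasts and did not overlap over all NSPCs. Mt2 was low in both subtypes, at 125 and 150.1 against 233 and 343 CPM in type C cells and 90.2 and 28.0 against 166 and 95.3 CPM in neuroblasts, and too low for a test.

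Whether the change at PT D1 differed between subtypes was tested in 1 model with library terms, in which 8 of 2625 genes passed (0.305%), among them Mbp, Asprv1, Egr1, Gsto1, Lhx2, Klf7 and Sparcl1. Egr1, higher at PT D1 in both type B subtypes, stood at 120.3 and 65.4 against 55.2 and 95.3 CPM in neuroblasts (adjusted p 0.01). Sparcl1 stood at 1251 and 2515 against 1462 and 2107 CPM in quiescent type B cells and was higher at PT D1 in activated ones (0.033). For Mt2, Junb, Cdkn1a and Mki67 the difference between subtypes did not pass (adjusted p 0.98, 1, 0.31 and 0.63), which does not show that they changed alike. Without uninjured library 2 none of the 8 passed by edgeR (130 genes at an unadjusted p under 0.05 among all tested), and without PT D1 library 2 3 other genes passed and none of the 8 did.

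**Figure D5:**
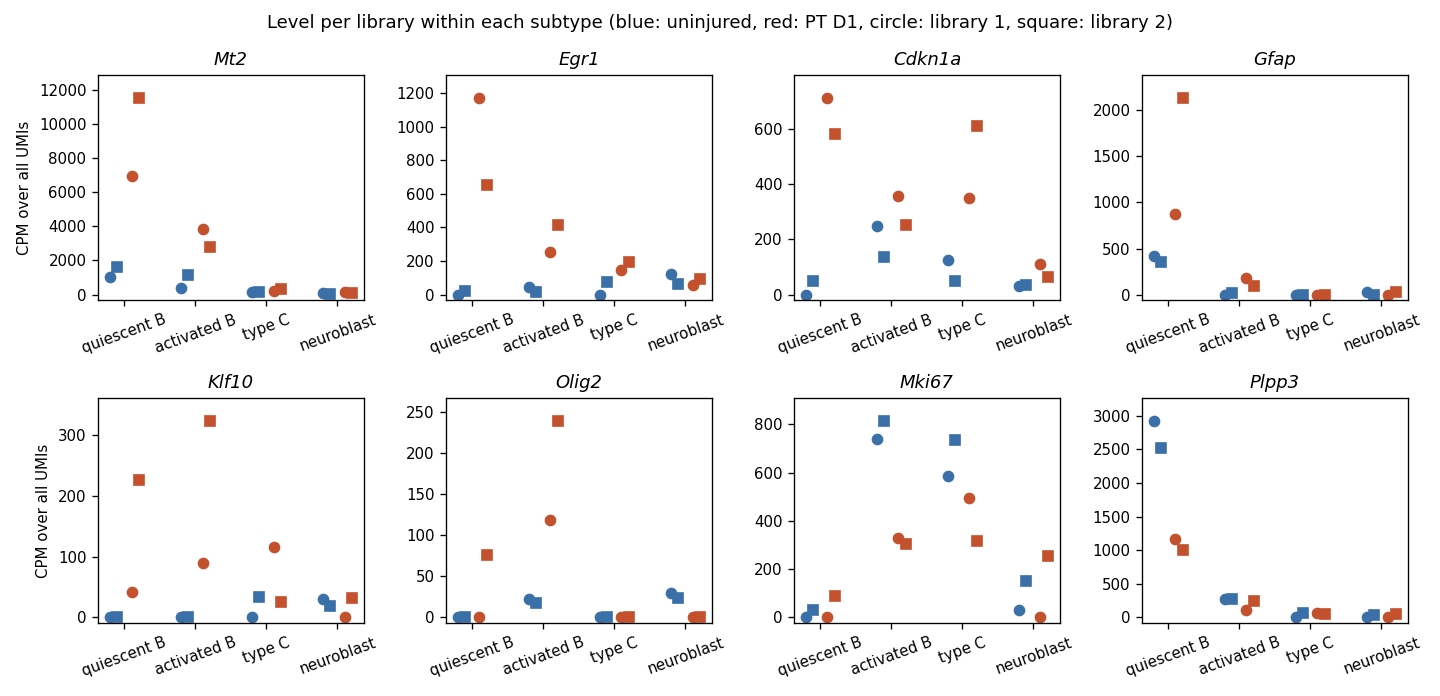
Level of 8 genes in each library within the 4 subtypes (CPM over all UMIs of those cells). In the order uninjured 1 and 2 and PT D1 1 and 2, Mt2 stood at 1043, 1632, 6976 and 11517 CPM in quiescent type B cells and 90.2, 28.0, 166 and 95.3 CPM in neuroblasts, and Mki67 in activated type B cells stood at 739, 814, 327 and 304 CPM.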

How the data were processed

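Cells were sorted into plates and sequenced by mCEL-Seq2, a 3' method that counts UMIs. The authors deposited a table of counts, as whole UMIs per gene and cell, with their cell classes and subtypes; they demultiplexed reads with bcl2fastq 2.17.1.14, named GRCm39 as the genome build, and kept cells with over 1000 UMIs and at most 25% mitochondrial UMIs. No aligner, counter or annotation is named. The 34203 rows include 92 spike-in rows with 0 UMIs, which were left out, and 15 further metadata columns were not used. The authors also discarded putative doublets, cells whose UMI total lay far from the median by median absolute deviation, and set the sorter to exclude doublets. No further doublet caller was run here.

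Counts were summed over the NSPCs of each library. Uninjured, PT D1 and PT D7 libraries (2 each) were fitted together in edgeR 4.0.16 (filterByExpr, TMM, quasi-likelihood F-test), with p values adjusted by Benjamini-Hochberg over all genes tested and a threshold of 0.05. For a constant mix, an offset per gene and library held the count expected from the library's UMI share in each subtype and a reference profile, the mean of the pooled uninjured and PT D1 profiles. Subtypes were fitted with at least 3 cells per library, so PT D7 library 1, which has 0 activated type B cells, is absent from that fit. Alternatives used DESeq2 1.42.0 and limma 3.58.1 (voom). DESeq2 gave some genes no adjusted p, and these count as not called. Scripts ran in R 4.3.3 and Python 3.11.15 and were tested on simulated data. Intervals cover counting error only. The named genes are the 10 largest rises and falls among called genes with a mean of at least 50 CPM whose conditions do not overlap, the 5 largest at a constant mix and the 3 largest in each subtype by the same rule, the called members of lists, the genes the study names and markers that move with a result, all chosen, like the lists, with earlier results of these data known. Some genes are not reported here.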

Additional observations from a re-analysis of the deposited data

Results flagged for a closer look

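For 8 genes the difference between uninjured and PT D1 libraries was not the same in all subtypes, by the test of the difference itself (edgeR, adjusted over 2625 genes). Among them, the adjusted p was 3.1e-07 for Mbp, 0.0102 for each of Asprv1, Egr1 and Gsto1, 0.0151 for Lhx2, 0.018 for Klf7 and 0.0334 for Sparcl1. Levels are given in CPM over a subtype's UMIs, for the 2 uninjured against the 2 PT D1 libraries. Asprv1 in type C cells stood at 41.8 and 75.1 against 174 and 1982 CPM, and in microglia at 244, 429, 203 and 1934 CPM in the same order of libraries. A single cell held 78 of the 81 Asprv1 UMIs in the type C cells of PT D1 library 2. Gsto1, a glutathione transferase, stood at 251 and 275 against 465 and 4111 CPM in type C cells, where a single cell held 163 of the 168 UMIs of PT D1 library 2. Mbp, a myelin protein, stood at 44.8 and 33.9 against 29.8 and 459 CPM in activated type B cells, so PT D1 library 2 alone was higher. Over all NSPCs a single cell held 33.3% of the Mbp UMIs at PT D1 and another 23.1% of the uninjured ones. Klf7 stood at 541 and 350.1 against 55.2 and 191 CPM in neuroblasts and at 69.5 and 144 against 209 and 341 CPM in quiescent type B cells, and Lhx2 at 83.7 and 50.0 against 349 and 318 CPM in type C cells. Sparcl1 stood at 22.4 and 50.9 against 193 and 388 CPM in activated type B cells, and Egr1 at 0 and 19.2 against 1169.6 and 656 CPM in quiescent ones.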

How the results depend on the processing

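Uninjured library 1 held 16 NSPCs, and the counts of calls moved with single libraries, the tool and the cells kept. Over all NSPCs 104 genes were called, and 94 in cells with at least 2000 UMIs. The count was 17 with DESeq2, 44 with at least 10 counts in every library, 1 in cells with at most 10% mitochondrial UMIs, 4 with cells thinned to 1000 UMIs, 1 without cells holding 3 or more microglia markers, and 39 to 229 with 1 library left out, lowest without uninjured library 2. Some of these settings left fewer genes to test than 4907. They numbered 1066 with at least 10 counts in every library, also at a constant mix, and 489 after thinning. In the mitochondrial set they numbered 613 and in the microglia marker set 320. In cells with at most 10% mitochondrial UMIs the log2 fold changes of Hspa8 and Ncam1 turned to 0.11 and 0.53. That set held 2 and 11 uninjured and 2 and 15 PT D1 cells. Without cells holding 3 or more microglia markers those of Gfap and Stmn2 turned to -0.90 and 0.13. This left 2 and 3 uninjured and 3 and 9 PT D1 cells, with 0 activated type B cells in either uninjured library. Without TMM scaling 76 genes were higher and 53 lower, with a median of all genes of 0.10. Subtracting microglial RNA, an alternative chosen after seeing the data, left 84. Of 50 called genes followed one by one in all NSPCs, 45 could be tested without PT D1 library 2 and 48 without uninjured library 2. A gene above for which no loss is given may therefore not have been tested in that setting. At a constant mix 121 genes were called, against 80 with a profile pooled over all cells, 55 with an additive subtype model fitted by limma voom, 38 with at least 10 counts, 222 with uninjured and PT D1 libraries alone, and 50 to 216 with 1 library left out, where S100a6 went from -0.32 without PT D1 library 2, a reversal, to 2.00 without PT D1 library 1. Without TMM scaling 86 were higher and 67 lower.

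Within quiescent type B cells (12 calls) no filter and DESeq2 each gave 3, and leaving out a library 0 to 14. Without TMM scaling 6 were higher and 4 lower. Within activated type B cells (55) no filter gave 31, DESeq2 4 and leaving out a library 2 to 41. Type C cells (1) gave 8 with no filter and 3 to 28, neuroblasts (2) gave 1 without TMM scaling, 1 with DESeq2 and 8 to 15, and the difference between subtypes (8) gave 1 with no filter and 0 to 7. Calls with a library left out were in part of genes not called in the main fit, and the number of genes tested moved as well. The cause of these moves was not tested. The deviations of same-numbered libraries were weakly correlated (0.095 for uninjured with PT D1, -0.058 and -0.041 for these with PT D7). Libraries of so few cells cannot show whether equal numbers share a plate or a pool of mice. The PT D7 numbers were inferred from the cell names, so -0.058, -0.041 and the block fit rest on that reading. With the library number as a block 88 genes were called, and 106 at a constant mix.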

Other observations

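Cold-inducible RNA-binding proteins were also higher at PT D1. Rbm3 stood at 249 and 302 CPM in the uninjured libraries and 1186 and 904 CPM at PT D1, a log2 fold change of 1.87 ± 0.25 (edgeR, adjusted p 8.7e-05) and 1.67 at a constant mix, and Cirbp at 95.8 and 84.7 CPM in the uninjured libraries and 343 and 279 CPM at PT D1, with 1.80 and 1.95 (0.0025 and 2.2e-04). Both also stood higher in the microglia of the same libraries, Rbm3 at 60.4, 61.9, 403 and 337 CPM and Cirbp at 22.0, 10.7, 94.5 and 75.9 CPM. Whether these calls over all NSPCs hold with 1 library left out was not examined. Within activated type B cells Rbm3 lost its call without PT D1 library 1. Cirbp lost it there without uninjured library 2 or either PT D1 library.

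Lars2, a mitochondrial leucyl-tRNA synthetase, stood at 862 and 1413 CPM in the uninjured libraries and 194 and 672 CPM at PT D1 in NSPCs. In microglia it stood at 1441, 658, 281 and 259 CPM. Single cells held 29.4% of its uninjured and 41.6% of its PT D1 UMIs in NSPCs. Erdr1 stood at 402 and 295 CPM in the uninjured libraries and 44.7 and 104 CPM at PT D1 in NSPCs. The log2 fold changes of Lars2 and Erdr1 at a constant mix were -1.65 and -2.21.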
